A study of Homo sapiens with 6 samples.

Results

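Complement components and regulators are described here through 9 genes, C3, CFB, CFI, CFD, C1R, C1S, CD46, CD55 and CD59, in cultures labelled Hep3B, which is an established human hepatocellular carcinoma line. All probes annotated with these symbols were taken, which gave 12 of the 28264 probes on the array and 9 of the 19090 genes named there. The labels give 3 arrays of cells transfected with CCN5, whose product is a secreted matricellular protein also called WISP2, and 3 arrays of cells transfected with a vector, which the titles name GFP. Both groups grew in the same medium with fetal bovine serum, and no other agent, time or clone is given. The labels do not say that replicates came from separate cultures, so every p-value below reflects array-to-array spread that may be technical. With 3 arrays per label, precision is limited by their number.

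Complement is a cascade of plasma and membrane proteins that marks cells and microbes for removal and can lyse them. The classical route starts when C1q, bound to an antibody or a surface, activates the serine proteases C1r and C1s. All routes meet at C3, whose fragment C3b settles on surfaces and, with factor B cut by factor D, forms the alternative pathway convertase that cleaves more C3. Factor I cuts C3b to stop this loop, with CD46 as one of its cofactors, while CD55 takes convertases apart and CD59 blocks the membrane attack pore. Hepatocytes make most of the soluble components in plasma, and many epithelial cells make C3 and factor B locally, under control of interferons and inflammatory cytokines.

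The transfected gene did not read higher under its own label. The CCN5 probe had deposited intensities of 673, 672 and 619 on the arrays labelled CCN5, against 835, 836 and 880 on the arrays labelled vector. The log2 difference was -0.34 (SE 0.09, limma adjusted p 0.151, exact two-sided permutation p 0.1, the smallest that 3 against 3 arrays allow). Whether this probe lies inside the transfected sequence was not known here. The gene therefore goes against the labels or checks nothing, and directions below rest on the labels alone. Array medians lay between 504.3 and 599.7, and 3 of 6 columns held values below 0, most of them on vector replicate 1, where 5.35% of probes lay under the floor of 1.

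The labelled cell type was not borne out by its defining transcripts. Of 16 measured hepatocyte and hepatoma markers, 15 had a signal percentile under 50 among all probes, with a median of 21.9. Albumin (ALB) lay at percentile 12.2 and alpha-fetoprotein (AFP) at 26.7. Of 9 measured squamous epithelial markers 8 lay above the 50th percentile, with a median of 95.4, and the keratin KRT5 reached percentile 98.4. A percentile says how bright a probe was on these arrays and not how many transcripts a cell held, and the cells are called by their label here.

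At their brightest probes, the alternative pathway genes and their inhibitor factor I read lower in the arrays labelled CCN5. The classical proteases and most membrane regulators were not separated between the labels there, and these sets of genes were not tested against each other. Of the 9 genes, 7 had a negative log2 difference at their brightest probe, against 51.9% of all 19090 genes. The median was -0.20, against -0.0115 over all genes. No member probe passed limma's test with Benjamini-Hochberg adjustment over all 28264 probes, where 0% of probes were called and the smallest adjusted p of any probe was 0.0903. At an unadjusted p under 0.05, 4 of the 12 member probes were lower and 0 higher, against 10.4% and 8.62% of all probes. On the normalized log2 scale 5 of the 12 had the 3 CCN5 arrays all under the 3 vector arrays and 0 all over them, against 14.8% and 11.8% of all probes. On the deposited scale the count was 6 of 12, against 11.5%. The members were chosen with earlier results of these data known, so these counts describe them and do not test them as a group. Over the brighter 50% of probes, which hold 11 of the 12, limma called 3 members lower (C3, CFB and CFI), where 4.01% of the 14132 probes were called lower. A trended variance fitted robustly led to calls for C3 and CFI, where 1.19% of all probes were called lower, and log2(value + 50) led to a call for CFI, where 0.796% were.

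**Figure D1:**
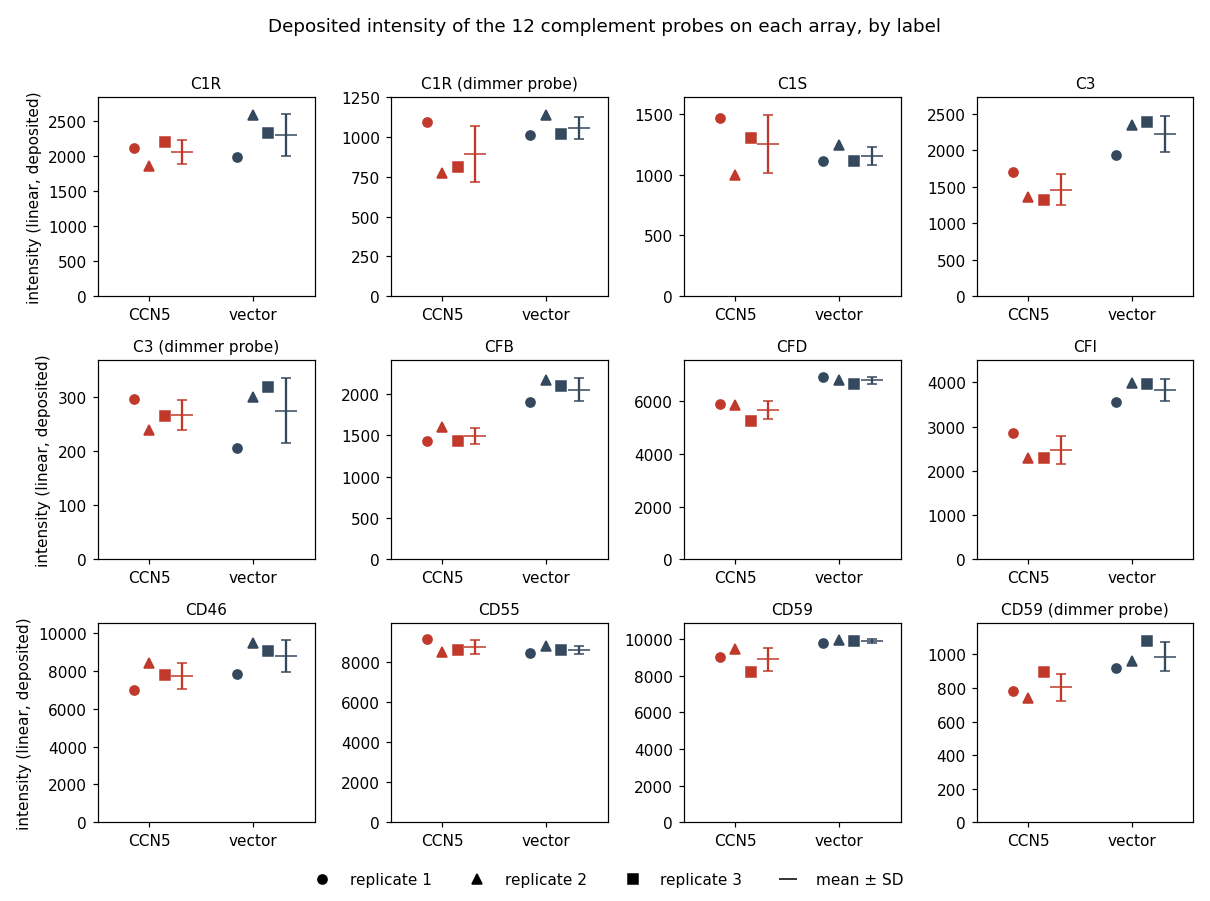
Deposited intensity (linear scale, vertical axes from 0) of each of the 12 probes on each array, with arrays labelled CCN5 on the left and arrays labelled vector on the right of each panel. Symbols mark the replicate number, and the bar is the mean with its SD (n = 3). The brighter C3 probe, CFB, CFD, CFI and both CD59 probes lie lower on all 3 arrays labelled CCN5, and the other 6 probes, the dimmer C3 probe and CD55 included, overlap between the labels.

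C3, the protein on which all complement routes converge, had 2 probes that gave different answers. The brighter C3 probe read 1705, 1364 and 1315 on CCN5 replicates 1 to 3, against 1942, 2346 and 2386 on vector replicates 1 to 3. The groups did not overlap, and the nearest arrays were CCN5 replicate 1 and vector replicate 1. The mean was 1462 ± 212 in the arrays labelled CCN5 and 2225 ± 246 in the arrays labelled vector (SD, n = 3 each). The CCN5 mean was 65.7% of the vector mean. On the normalized scale the log2 difference was -0.59 (SE 0.12, 95% interval -0.89 to -0.30, limma adjusted p 0.121). The dimmer C3 probe, at percentile 38.3 of signal, read 296, 239 and 265 with the CCN5 label, against 206, 299 and 319 with the vector label. These groups overlapped, and the log2 difference was 0.003 (SE 0.12, 95% interval -0.30 to 0.30, limma adjusted p 0.993). Averaging both probes gave C3 a log2 difference of -0.30 (limma adjusted p 0.213). Where the 2 probes lie within the transcript was not known here.

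CFB, which encodes factor B, the part of the alternative convertase that carries the catalytic site, had 1 probe. It read 1431, 1601 and 1431 on the arrays labelled CCN5, against 1898, 2168 and 2097 on the arrays labelled vector. The groups did not overlap, with a mean of 1487 ± 98.1 for the CCN5 label and 2054 ± 140 for the vector label (SD, n = 3 each). The log2 difference was -0.45 (SE 0.10, 95% interval -0.69 to -0.20, limma adjusted p 0.136), which puts the vector label 1.36-fold above (95% interval 1.15 to 1.62). CFD, which encodes factor D, the protease that cuts factor B, differed less. It read 5912, 5849 and 5271 with the CCN5 label, against 6919, 6814 and 6659 with the vector label. The groups did not overlap, the CCN5 mean was 83.5% of the vector mean, and the log2 difference was -0.26 (SE 0.09, 95% interval -0.47 to -0.05, limma adjusted p 0.198). Its unadjusted p stayed under 0.05 when 1 array was left out in only 2 of 6 cases, against 6 of 6 for C3, CFB and CFI.

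CFI, which encodes factor I, the protease that inactivates C3b and C4b, showed the largest difference of the 9 genes. It read 2850, 2293 and 2293 on the arrays labelled CCN5, against 3553, 3983 and 3970 on the arrays labelled vector. The groups lay well apart, with CCN5 replicate 1 nearest to the vector arrays, and the mean was 2479 ± 321 for the CCN5 label and 3835 ± 245 for the vector label (SD, n = 3 each). The log2 difference was -0.62 (SE 0.11, 95% interval -0.89 to -0.35, limma adjusted p 0.106), which puts the vector label 1.54-fold above (95% interval 1.28 to 1.86). Across all 17 settings tried, the log2 difference of CFI lay between -0.72 and -0.57.

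**Figure D2:**
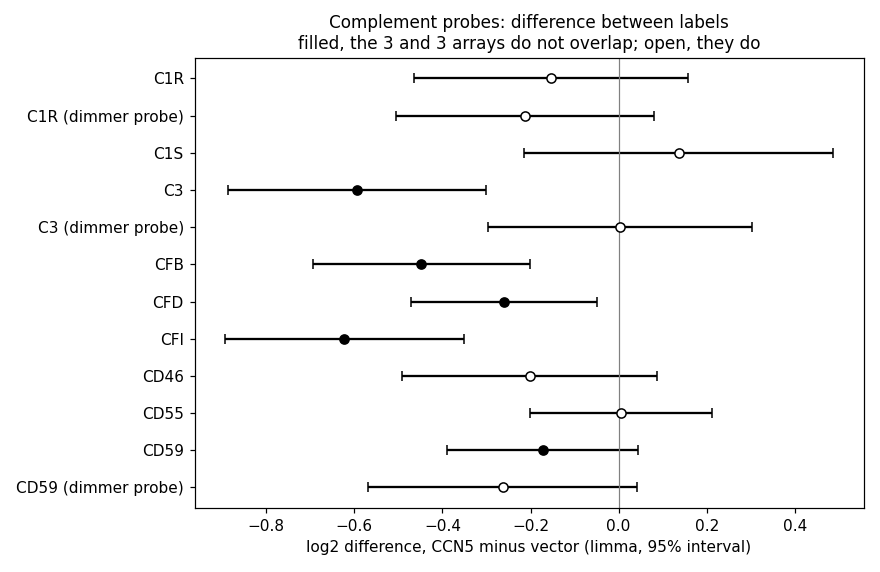
Log2 difference between labels (CCN5 minus vector, horizontal axis) for each of the 12 probes, with limma's 95% interval. Filled points mark probes whose 3 and 3 arrays do not overlap on the normalized scale. The intervals of the brighter C3 probe, CFB, CFD and CFI lie below 0, and those of the other 8 probes, the dimmer C3 probe included, span 0.

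Sequence upstream of the start site is shown for CFB and CFI, which read lower with the CCN5 label, and for CD55, whose values overlapped, to set the letters beside the values. The sequences are RefSeq's on GRCh38.p14, 250 bases before each annotated start, 5′ to 3′ on the gene's strand, and 7 of the 9 genes had an entry. C3 and C1S had none. Capitals mark matches to the motifs searched on both strands, which were GGGANTTTC for NF-kB, TTCNNNGAA for STAT factors, TTNNGNAAT for C/EBP factors and GAAANNGAA for interferon response factors. CFB lies at chr6:31945845-31946094 (+ strand), CFI at chr4:109802000-109802249 (- strand) and CD55 at chr1:207321428-207321677 (+ strand).
CFB: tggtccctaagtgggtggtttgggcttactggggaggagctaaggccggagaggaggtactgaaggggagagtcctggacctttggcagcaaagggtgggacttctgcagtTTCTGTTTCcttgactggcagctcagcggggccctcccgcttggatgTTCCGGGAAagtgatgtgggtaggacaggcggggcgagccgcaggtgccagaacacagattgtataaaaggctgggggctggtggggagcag
CFI: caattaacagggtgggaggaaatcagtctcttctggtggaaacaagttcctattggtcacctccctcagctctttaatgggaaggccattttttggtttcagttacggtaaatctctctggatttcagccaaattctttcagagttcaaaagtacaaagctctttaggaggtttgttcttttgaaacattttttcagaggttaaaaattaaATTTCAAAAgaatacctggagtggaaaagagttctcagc
CD55: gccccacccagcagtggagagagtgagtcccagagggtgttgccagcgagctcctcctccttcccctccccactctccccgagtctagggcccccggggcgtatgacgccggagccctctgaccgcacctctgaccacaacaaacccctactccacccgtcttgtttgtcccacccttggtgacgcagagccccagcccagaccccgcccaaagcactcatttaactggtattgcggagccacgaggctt

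The CFB window held a STAT match, TTCCGGGAA, that begins at base -92 from the start, and an interferon response match on the opposite strand (TTCTGTTTC as printed) that begins at -139. The 2 matches do not overlap. A STAT match occurred in 6.57% of the 35116 upstream windows and an interferon response match in 6.88%. The CFI window held 1 match, to the C/EBP motif on the opposite strand (ATTTCAAAA at -39), which 9.85% of windows share. None of the 4 motifs occurred in the CD55, CFD or CD46 windows, and the NF-kB motif, found in 1.12% of windows, occurred in none of the members' windows. A STAT match also occurred upstream of CD59 and C1R, in windows of some of their annotated starts, and a C/EBP match upstream of another C1R start. A match is a string of letters and not a binding site.

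The proteases that start the classical route were not separated between the labels. C1R, which encodes the protease that activates C1s, read 2115, 1862 and 2199 with the CCN5 label at its brighter probe, against 1990, 2589 and 2331 with the vector label. The ranges overlapped, and the log2 difference was -0.15 (SE 0.13, 95% interval -0.46 to 0.16, limma adjusted p 0.560). Its dimmer probe gave a log2 difference of -0.21 (95% interval -0.51 to 0.08, limma adjusted p 0.391), also with overlapping groups. C1S, which encodes the protease that cuts C4 and C2, read 1471, 998 and 1303 with the CCN5 label, against 1115, 1244 and 1116 with the vector label. CCN5 replicate 2 lay below every other array and CCN5 replicates 1 and 3 above them, so the spread within the CCN5 label (SD 240) exceeded that within the vector label (SD 74.1). The log2 difference was 0.14 (SE 0.15, 95% interval -0.21 to 0.49, limma adjusted p 0.651), the only positive one among the 6 soluble members at their brightest probes. Leaving out 1 array gave C1S differences of 0.047 to 0.28, the highest without CCN5 replicate 2 (unadjusted limma p 0.0324, adjusted p 0.179). For the brighter C1R probe they were -0.25 without vector replicate 1 to -0.066 without vector replicate 2. The intervals over all arrays still allow a C1R signal 1.38-fold higher and a C1S signal 1.16-fold higher with the vector label. For C1S the interval reaches further toward the CCN5 label, to a log2 difference of 0.49.

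The membrane regulators, which protect the cell that carries them, lay near the 90th percentile of signal at their brightest probes. Their log2 differences there lay between -0.20 and 0.005. CD46, a cofactor for factor I, read 6986, 8389 and 7773 on the arrays labelled CCN5, against 7812, 9444 and 9023 on the arrays labelled vector. The groups overlapped, and the log2 difference was -0.20 (SE 0.12, 95% interval -0.49 to 0.09, limma adjusted p 0.408). CD55, the decay-accelerating factor, read 9183, 8509 and 8633 with the CCN5 label, against 8446, 8814 and 8596 with the vector label. Its log2 difference was 0.005 (SE 0.09, 95% interval -0.20 to 0.21, limma adjusted p 0.980), an interval that reaches 1.16-fold higher with the CCN5 label and 1.15-fold higher with the vector label. CD59, a GPI-anchored inhibitor of the membrane attack complex, read 9005, 9428 and 8194 with the CCN5 label at its brighter probe, against 9762, 9947 and 9903 with the vector label. The groups did not overlap, but the gap between them was smaller than the range of the CCN5 arrays, with a log2 difference of -0.17 (SE 0.09, 95% interval -0.39 to 0.04, limma adjusted p 0.352). The dimmer CD59 probe gave -0.26 (SE 0.13, 95% interval -0.57 to 0.04, limma adjusted p 0.319). Its deposited groups did not overlap, at 780, 739 and 895 with the CCN5 label and 918, 962 and 1081 with the vector label. Its normalized groups did overlap, and its difference was as large as that of CFD (-0.26).

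The brighter C3 probe and CFI had almost the same profile over the 6 arrays. Only the brightest probe of each gene was compared, and the dimmer C3 probe (log2 difference 0.003) did not separate the labels. After each probe was centred on its own mean, the root mean square distance to CFI was 0.0400 on the log2 scale for C3, which ranked 2 among 10559 genes of the brighter 50% of probes, where the median distance was 0.347. The nearest gene was the metallothionein MT1X (distance 0.0356, log2 difference -0.66), and the next after C3 was IFI6, an interferon-induced gene (0.0569, log2 difference -0.70). CFB ranked 408 and CFD 735 by this distance, CD55 ranked 4149 and C1S 7255. In all 4 of the closest profiles CCN5 replicate 1 was the highest of the arrays labelled CCN5 and vector replicate 1 the lowest of those labelled vector. This likeness covers 6 arrays in 2 groups, which share their processing, and is a description.

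**Figure D3:**
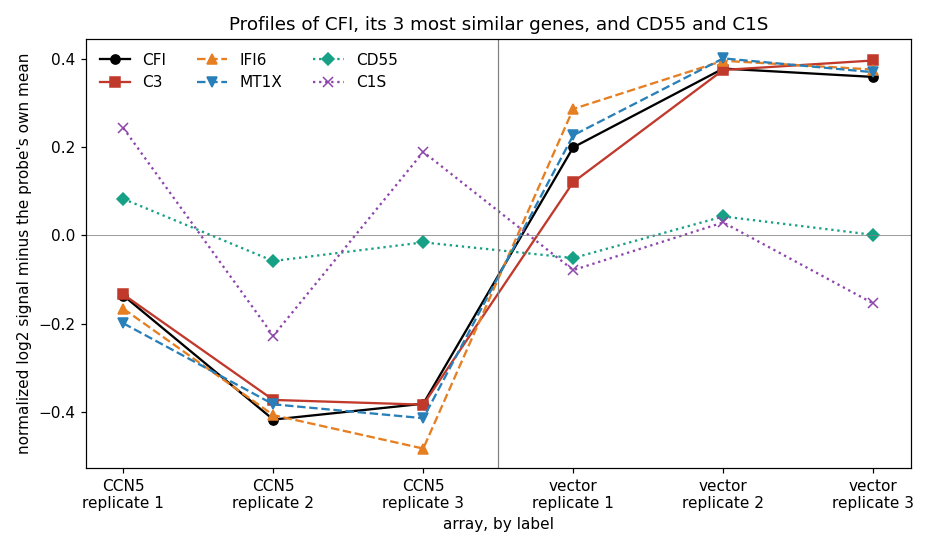
Normalized log2 signal minus each probe's own mean (vertical axis) on each of the 6 arrays (horizontal axis, arrays labelled CCN5 left of the line and arrays labelled vector right of it). Each gene is shown by its brightest probe. CFI, C3, MT1X and IFI6 lie below their means on all 3 arrays labelled CCN5 and above them on all 3 labelled vector. CD55 stays near 0 and C1S crosses it within both labels.

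The other complement genes showed no common direction. Of 56 listed 51 were measured, 27 lower and 24 higher with the CCN5 label, where 51.9% of all genes were lower. The median log2 difference was -0.016. None passed limma's test over all probes. At an unadjusted p under 0.05, 6 were lower and 5 higher, against 11.2% and 8.58% of genes at their brightest probe. Much of the pathway was dim, with 38 of these 51 under signal percentile 50 and all 8 amplification and terminal pathway genes among them. CLU, at percentile 94.9, encodes clusterin, a chaperone that restrains the terminal complex. CLU read 16503, 18297 and 13122 with the CCN5 label, against 22294, 21807 and 21525 with the vector label. Its groups did not overlap, with a log2 difference of -0.50 (SE 0.13, limma adjusted p 0.154), and a second CLU probe at percentile 3.33 gave 0.006. MASP1, a lectin pathway protease gene whose products include an activator of factor D, read 1115, 858 and 851 with the CCN5 label, against 566, 228 and 457 with the vector label. Its log2 difference was 1.32 (SE 0.36, limma adjusted p 0.154), while its dimmer probes gave 0.20 and -0.34. Over the brighter 50% of probes limma called CLU lower and MASP1 higher, where 3.06% of probes were called higher.

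Among the rest of the 10 other complement genes of smallest p, C4B, which encodes a C4 isotype, differed by -0.39 on the log2 scale (SE 0.13, limma adjusted p 0.188) and its dimmer probe by -0.44. C4B and C4A are near-identical copies, so their probes may read each other's transcripts, and C4A stood at -0.11. COLEC11, a collectin that recognizes sugars, differed by -0.40 and its dimmer probe by -0.10, and ITGAX, the alpha chain of complement receptor 4, by -0.52 (SE 0.12, limma adjusted p 0.138). C3AR1, the receptor for C3a, differed by -0.26 at percentile 14.7 of signal. C1QB, a chain of C1q, was the other way, at 127, 89.7 and 84.4 with the CCN5 label and 27.9, 57.8 and 46.4 with the vector label. Its log2 difference was 1.18 (SE 0.18, limma adjusted p 0.0997), but it lay at percentile 15.2 of signal, and the difference was 0.63 with log2(value + 50). A still dimmer C1QB probe gave -0.11. The pore components C6 and C9 and the carboxypeptidase CPB2 differed by 0.85, 0.91 and 0.89, all with deposited groups that overlapped and at percentiles of 25.8, 8.51 and 5.15. On the normalized scale the C6 and CPB2 groups overlapped too, while those of C9 did not, with the CCN5 label higher.

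**Figure D4:**
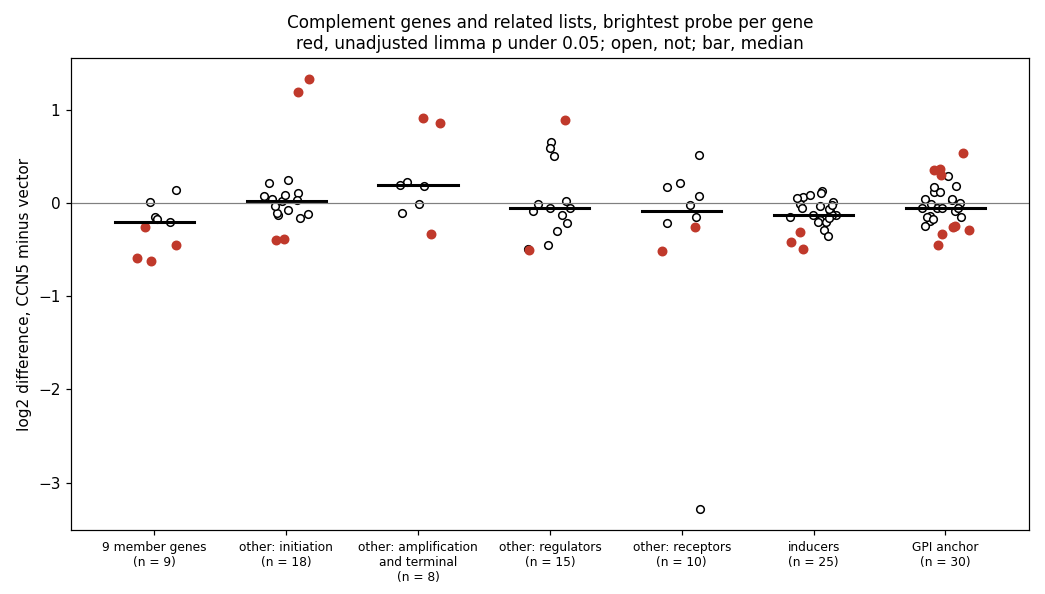
Log2 difference between labels (CCN5 minus vector, vertical axis) at the brightest probe of each gene. Shown are the 9 members, the other complement genes by role, the list of complement inducers, which includes inhibitors of their signalling, and genes of the GPI anchor. Red points have an unadjusted limma p under 0.05, open points do not, and bars are medians. The median is -0.20 for the members and between -0.13 and 0.19 for the other lists, and the point at -3.28 is C1QBP.

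The list of complement inducers holds cytokines, their receptors, signalling proteins and transcription factors. Of 25 measured, 19 were lower, where 51.9% of all genes were lower, and the median log2 difference was -0.13. Not all are drivers: the inhibitors NFKBIA (-0.068) and SOCS3 (-0.021) are counted among the lower genes. Of the 25, 7 lay under signal percentile 50. At an unadjusted p under 0.05, 3 of the 25 were lower and 0 higher, close to the 11.2% of all genes that were lower and against 8.58% higher, and none passed limma's test over all probes. IRF1, an interferon-induced transcription factor, read 5966, 6539 and 5666 with the CCN5 label, against 8016, 8082 and 7944 with the vector label. Its groups did not overlap, with a log2 difference of -0.42 (SE 0.09, limma adjusted p 0.121) and a dimmer probe at -0.33. IL1B, which encodes the cytokine interleukin-1 beta, read 4207, 3924 and 4232 with the CCN5 label, against 5996, 6186 and 5273 with the vector label. Its groups did not overlap either, and the log2 difference was -0.49 (SE 0.10, limma adjusted p 0.123). Both genes were called lower over the brighter 50% of probes and with the trended, robust variance. NR1H3, the liver X receptor alpha gene, differed by -0.31 (SE 0.08), the receptor OSMR by -0.36 (SE 0.16), the acute phase factor CEBPD by -0.21 (SE 0.09) and TNF by -0.19 (SE 0.10), and the OSMR and TNF groups overlapped. Other OSMR probes gave -0.11 and 0.10, and a second NR1H3 probe -0.11. TNF lay at signal percentile 18.8.

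CD55 and CD59 are held on the membrane by a GPI anchor. The 30 genes of the anchor's synthesis, attachment and remodelling were split, 17 lower and 13 higher, where 51.9% of all genes were lower. Their median log2 difference was -0.055. At an unadjusted p under 0.05, 5 of the 30 were lower and 4 higher, against 11.2% and 8.58% of all genes, and none passed limma's test over all probes. PIGW, which acylates the anchor's inositol, differed by 0.54 (SE 0.15) and PGAP2, which remodels its lipid, by 0.35 (SE 0.09), with other PGAP2 probes at 0.016 and 0.046. Over the brighter 50% of probes limma called PIGW and PGAP2 higher, where 3.06% of probes were called higher. On the lower side, the mannosyltransferase genes PIGZ and PIGV differed by -0.45 (SE 0.11) and -0.34 (SE 0.12), DPM2 of dolichol-phosphate-mannose synthesis by -0.29 (SE 0.11) and MPPE1, which trims the anchor, by -0.25 (SE 0.09).

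Leukocytes, fibroblasts and endothelial cells also make complement proteins. Of 11 measured leukocyte markers 10 were lower with the CCN5 label, where 51.9% of all genes were lower. At an unadjusted limma p under 0.05, 3 of the 11 were lower and 0 higher, against 11.2% and 8.58% of all genes. The summed deposited intensity of the 11 was 5851 to 7230 on the arrays labelled CCN5 and 7718 to 9007 on the arrays labelled vector. The defining leukocyte marker PTPRC lay at percentile 15.1 and CD3E at 12.3, while CD68, which many other cells also express, lay at 80.8 and differed by -0.41. CD14, the other of the 2 leukocyte markers above percentile 50, lay at 63.1 and differed by -0.34 (SE 0.13, limma adjusted p 0.235). It read 1199, 1177 and 850 with the CCN5 label, against 1334, 1335 and 1478 with the vector label, without overlap. CD68 alone gave 3504, 3412 and 3064 of the sums with the CCN5 label. With the vector label it gave 4201, 4444 and 4664. Fibroblast markers were lower for 7 of 10, with sums of 6239 to 7515 under the CCN5 label and 6121 to 8944 under the vector label. At an unadjusted limma p under 0.05, 4 of the 10 were lower and 1 higher. Over the brighter 50% of probes limma called LUM (-0.55), ACTA2 (-0.49) and CD68 lower, where 4.01% of probes were called lower. The trended, robust variance led to calls for LUM and CD68, where 1.19% of all probes were called lower. Endothelial markers were lower for 5 of 8, with sums of 1902 to 2805 under the CCN5 label and 2215 to 2582 under the vector label. At an unadjusted limma p under 0.05, 1 of the 8 was lower and 0 higher. No marker of these 3 lists passed limma's test over all probes. The part of other cells in the complement values was not tested, and fewer cells of a type and less RNA per cell cannot be told apart in such bulk samples.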

How the data were processed

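Total RNA was amplified as antisense RNA from an oligo(dT) primer and labelled with Cy3, 1 sample per array, per the labels' protocols. The deposited tables hold a linear intensity for each probe on each array. How the authors scanned, background-corrected or normalized it is not stated in the labels. Intensities were floored at 1, taken to log2, quantile normalized and compared by label, without covariates, through lmFit and eBayes of limma 3.58.1 (R 4.3.3, two-sided) over all 28264 probes. Benjamini-Hochberg adjustment covered all probes, at a threshold of 0.05. The platform annotation names 25893 probes with 1 gene, 0 with several and leaves 2371 unnamed here. The brightest probe represents a gene. All probes of the 9 members are given. Of the other complement list the 10 genes of smallest p are named, of the inducer and GPI lists 6 each, and for the member of smallest p the 3 genes of most similar profile. Members and lists were chosen with earlier results of these data known. The fit was checked on simulated data whose planted log2 effects were larger than any member difference here, so the check does not cover effects of the members' size. Alternatives changed the scale, pseudocount, filter, variance model, weights, block and probe choice, and left out each array. Upstream sequences and their coordinates come from RefSeq's GRCh38.p14 table; probe coordinates are not given.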

Additional observations from a re-analysis of the deposited data

How the results depend on the processing

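Settings were planned apart from the count at an unadjusted p, which was added after seeing the data. Probes called lower and higher over the array numbered 225 and 80 with log2(value + 50), 151 and 33 without the dimmest 25% of probes, 567 and 432 without the dimmest 50%, and 336 and 188 with a trended, robust variance, against 0 and 0. In the same settings 1, 0, 3 and 2 member probes were called lower, and of the other complement genes 1 was called higher with log2(value + 50) and with the robust variance (C1QB in both), and 1 lower and 1 higher without the dimmest 50%. The last filter tests fewer probes; other causes were not tested. CCN5 passed the threshold there (-0.34). Leaving out 1 array gave 0 to 1 probes called lower. The brighter C3 probe (averaged with the dimmer in 1 setting), CFB and CFI were lower in all 17 settings. At an unadjusted p under 0.05, 3 to 5 members were lower, against 5.11% to 15.1% of all probes or genes, and 1 was higher without CCN5 replicate 2 (C1S). The sign turned for the dimmer C3 probe on the deposited scale (-0.023) and without 1 array (-0.10 to 0.079), and for CD55 with array weights (-0.012) and without 1 array (-0.035 to 0.035). Same-numbered arrays deviated with correlations of -0.14, 0.12 and 0.017, which does not pair them. The replicate block gave 0 probes called in either direction, 0 members, and a CCN5 difference of -0.34. Without detection flags, the signal level that separates expression from background is unknown.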

Other observations

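C1QBP, which encodes a mitochondrial protein that also binds C1q, read 43063, 23.6 and 49918 on CCN5 replicates 1 to 3, against 32822, 29591 and 31352 on vector replicates 1 to 3. It was singled out after its values were seen. CCN5 replicate 2 lay far below the other 5 arrays, while CCN5 replicates 1 and 3 lay above all 3 vector arrays, and the log2 difference was -3.28 (SE 3.00, limma adjusted p 0.590).

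Calreticulin (CALR), a chaperone that acts as a C1q co-receptor on cell surfaces and was also chosen after its values were seen, read 14675, 15580 and 17556 with the CCN5 label, against 12955, 13508 and 13929 with the vector label. The groups did not overlap, and the log2 difference was 0.21 (unadjusted limma p 0.0770, adjusted p 0.313). On the normalized scale 11.8% of all probes had the 3 CCN5 arrays all over the 3 vector arrays, as CALR did. IFI6, the interferon-induced gene close to CFI in profile, has a second probe at signal percentile 70.2, which differed by -0.72.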
